A study of Mus musculus with 6 samples.

Results

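The genes of DNA replication and S phase form a set of 38 members that was drawn up by function: the proteins that mark and license replication origins, the helicase, the polymerases, the sliding clamp and its loader, the enzymes that finish the lagging strand or supply deoxynucleotides, chromatin assembly factors, and the regulators of S phase entry. Every probe set that the platform annotation gives to a single member symbol was taken, which found 82 probe sets for 37 of the 38 members, out of 18193 genes with a probe set of a single symbol. Chaf1a was not analysed here. All 37 had at least 1 probe set past the filter on dim values, which asked for a log2 intensity above 4 on 3 or more arrays of the 6, and 78 of the 82 probe sets passed it.

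ICAM1-positive cells were compared with ICAM1-negative cells. Both were sorted with a fluorescent antibody to ICAM1 (CD54), an adhesion protein found on horizontal basal cells and on endothelial and immune cells, from the dissociated olfactory epithelium of CD1 mice. The labels name no mutant allele and no treatment. Each of 3 litters, taken at postnatal day 21, 22 or 24, was split into both sorts, so that each sort has 3 arrays. Age and litter cannot be told apart, and the animals of a litter were pooled. RNA went through 2 rounds of amplification before hybridisation to an Affymetrix mouse array. Array medians lay between 87.9 and 102, in units of scaled linear intensity, in the ICAM1-positive sort and between 91 and 102.8 in the ICAM1-negative sort.

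DNA replication proceeds in separated steps (background). In G1 the origin recognition complex, Cdc6 and Cdt1 load the ring-shaped MCM helicase onto DNA in an inactive form. In S phase, kinases bring Cdc45 and the GINS complex to that ring, the helicase opens the duplex, and primase, the polymerases, the PCNA clamp and the ligation enzymes copy the strands. E2F transcription factors switch most of these genes on, and the pocket proteins of the RB family hold them off in resting cells. In the olfactory epithelium the globose basal cells are the cycling progenitors, whereas horizontal basal cells are known as a reserve stem cell that divides rarely in uninjured adults.

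Horizontal basal cell markers marked the ICAM1-positive sort. Icam1 itself, the antigen of the sort, stood at 7246.5, 6817.2 and 6857.1 in ICAM1-positive cells, against 13, 16.1 and 33.2 in ICAM1-negative cells. This matches the titles of the samples, whereas their free-text descriptions name the opposite population. Markers are counted by the call rule given below, which called 21.3% of all genes measured as higher and 22.2% as lower. All 8 horizontal basal cell markers were higher, with a summed intensity of 97757 to 102576 per array in ICAM1-positive cells and 329 to 786 in ICAM1-negative cells. This list and its sum include Icam1, on which the cells were sorted. Of 15 macrophage markers 13 were higher (sum 20911 to 25897, against 1659 to 2142 in ICAM1-negative cells), and of 11 globose basal cell and precursor markers 10 were lower (sum 6559 to 8946, against 44806 to 54220). All 12 olfactory neuron markers were lower (sum 6524 to 13739, against 114300 to 136886). Of 7 sustentacular markers 4 were higher, with sums of 40848 to 58530 and 24437 to 37846. The other 3, Cyp2g1, Cyp1a2 and Sec14l3, gave log2 differences of -0.29, -0.69 and -0.28 and did not pass. The 5 lymphocyte markers summed to 196 to 257 and 310 to 506, and the 7 endothelial markers to 373 to 428 and 343 to 412. The 7 fibroblast markers summed to 2960 to 5074 and 1458 to 3523. Only 1 of them, Dcn, was called (higher, mean 3468 against 907.2), and the others went both ways without passing. The part of these cell types in the results on replication genes was not tested. In sorted bulk RNA, fewer cells of a type and less RNA per cell cannot be told apart.

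Most of the 37 measured members differed by less than 2-fold between the sorts. Those called went both ways, more of them lower than higher. Of the 37 measured members 3 were higher in ICAM1-positive cells (Tk1, Gins2 and Pola1), 7 were lower (Fen1, Cdc45, Rfc4, Orc6, Mcm7, Mcm10 and Cdc6), and 27 did not pass the threshold. The call rule was an adjusted p below 0.05 in a limma fit with litter as a block. It called 43.6% of all 16399 genes measured, 21.3% as higher and 22.2% as lower, and 27% of the members, 8.11% as higher and 18.9% as lower. Without the litter block it called 9 members and 41.4% of all genes. Over single probe sets, 5 of the 78 of members were higher and 9 lower, against 17.8% and 19.3% of all 38694 (37.2% in either direction). The share called depended on how the spread was modelled, since with an intensity trend in the fit 54.1% of members and 56.1% of all genes passed. By size, 4 of 37 members (10.8%) differed by 2-fold or more (a log2 difference of at least 1 in size), as did 39.1% of all genes. The genes that were both called and at 2-fold or more made up the same 10.8% of the members and 32.3% of all genes. Over the alternatives run, the share at 2-fold or more was 5.41% to 13.5% of members and 27.1% to 40.6% of all genes. The median log2 difference was -0.17 over members and -0.06 over all genes, and the median size of the difference was 0.37 over members and 0.73 over all genes.

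**Figure D1:**
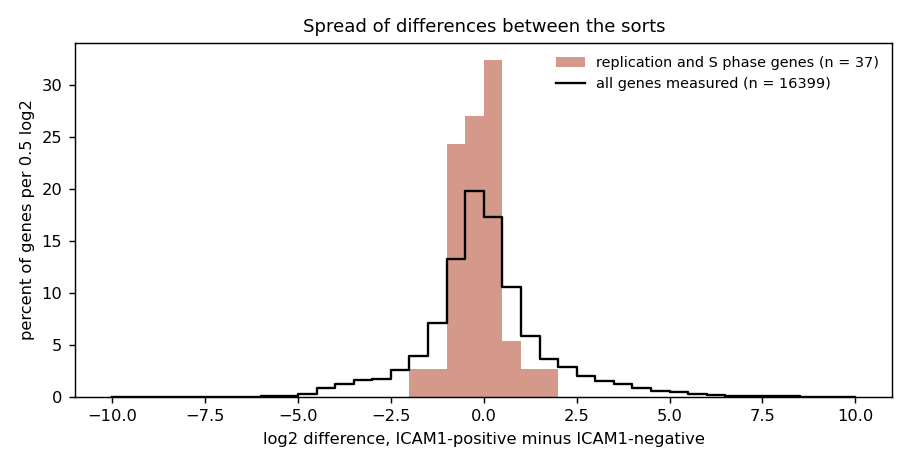
Distribution of the log2 difference (ICAM1-positive minus ICAM1-negative, x axis, in steps of 0.5) as the percentage of genes per step (y axis). Filled bars are the 37 replication and S phase genes and the black line is all 16399 genes measured; the members lie between -1.59 and 1.99, whereas the line runs from -6.35 to 9.61.

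Intensities of the 3 ICAM1-positive arrays did not overlap those of the 3 ICAM1-negative arrays for 12 members that were lower and 6 that were higher. Among all genes, 30.1% were lower and 27.8% higher without overlap, 57.9% in either direction. The members without overlap that did not pass were Prim2, Rfc3, Rfc5, Rpa1 and Rrm2, which were lower, and Cdt1, Pcna and Lig1, which were higher. Of the 27 members that did not pass, 23 had a 95% interval of the log2 difference that stayed within 1 of zero, and the exceptions were Mcm2, Prim2, Rfc3 and Ccne2. The precision is limited by the number of litters: leaving out any litter ended 9 of the 10 calls (adjusted p = 0.053 to 0.169) and left Tk1 (adjusted p = 0.0415 to 0.0497), although all 10 kept their direction. Over all genes, the share called fell in those fits as well, to 16%, 17.9% and 19.6% without litters 1, 2 and 3.

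**Figure D2:**
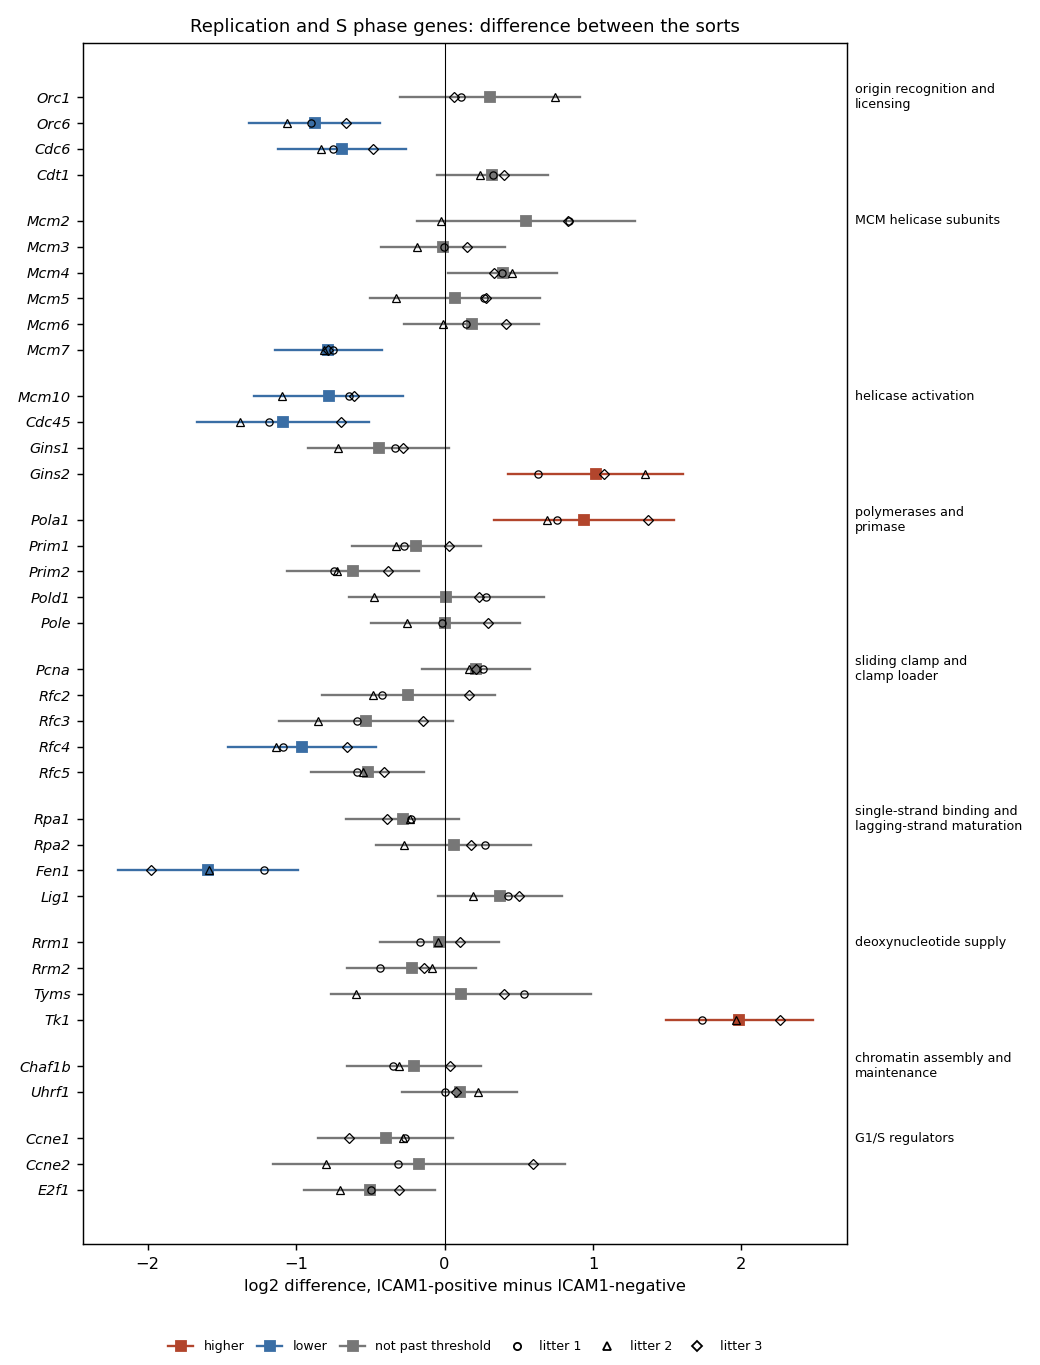
Log2 difference between ICAM1-positive and ICAM1-negative cells (x axis) for the 37 measured members, by role (y axis). Squares are the estimates of the paired fit, lines their 95% intervals, and open symbols the 3 litters; Tk1 at 1.99 and Fen1 at -1.59 lie farthest from zero.

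Many of the promoters of these genes hold a sequence that the choice of members did not use. RefSeq promoter windows (build GRCm38.p6, 250 bases before to 50 after a transcript start) were found for 31 of the 38 members. They were searched on both strands for the E2F consensus, spelled as TTTCCCGC, TTTCGCGC, TTTGCCGC and TTTGGCGC. At least 1 of these words stood in the windows of 12 of the 31 members (38.7%), of 704 of 27025 genes with a window (2.6%) and of 3.81% of the 14453 such genes on the array. Counted by window, 2.26% of 32851 held a word. The share was 39.1% of 46 other replication genes and 5.88% of 17 genes of G2 and mitosis. The 12 were Orc1, Cdc6, Cdt1, Mcm3, Mcm5, Mcm6, Mcm7, Pola1, Pold1, Rfc3, Lig1 and Uhrf1.

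The upstream 250 bases of 4 of them are shown because they carry the same kind of word and went different ways: Cdc6 and Mcm7 were lower in ICAM1-positive cells, Pola1 was higher and Mcm6 did not pass. They lie at chr11:98907901-98908150 on the + strand and chr5:138171884-138172133, chrX:93632156-93632405 and chr1:128359706-128359955 on the - strand. Each is written 5′ to 3′ as the gene reads, with the E2F words in capitals. RefSeq lists a further start upstream for Cdc6, Mcm7 and Pola1. For each gene the window shown is the first listed that held a word, so the start was chosen with the words known.
Cdc6: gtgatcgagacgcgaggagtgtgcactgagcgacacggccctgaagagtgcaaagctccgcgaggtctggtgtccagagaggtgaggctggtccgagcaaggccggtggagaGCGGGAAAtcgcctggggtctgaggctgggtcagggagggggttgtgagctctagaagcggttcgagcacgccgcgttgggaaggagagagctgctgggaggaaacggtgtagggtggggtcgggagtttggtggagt
Mcm7: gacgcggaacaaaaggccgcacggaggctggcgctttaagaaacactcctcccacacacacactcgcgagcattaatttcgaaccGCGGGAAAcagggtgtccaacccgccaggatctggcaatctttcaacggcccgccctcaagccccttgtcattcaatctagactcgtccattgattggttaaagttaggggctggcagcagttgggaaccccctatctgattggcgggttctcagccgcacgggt
Pola1: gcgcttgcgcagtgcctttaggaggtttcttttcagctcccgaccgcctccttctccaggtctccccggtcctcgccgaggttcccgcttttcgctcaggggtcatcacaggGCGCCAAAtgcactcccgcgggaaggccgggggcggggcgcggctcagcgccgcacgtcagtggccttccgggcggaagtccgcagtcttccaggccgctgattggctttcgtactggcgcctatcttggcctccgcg
Mcm6: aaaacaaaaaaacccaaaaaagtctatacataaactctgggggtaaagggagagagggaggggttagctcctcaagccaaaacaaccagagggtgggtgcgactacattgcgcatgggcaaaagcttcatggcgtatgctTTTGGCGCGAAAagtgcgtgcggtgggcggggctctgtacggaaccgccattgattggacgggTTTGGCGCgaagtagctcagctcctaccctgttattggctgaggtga

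Counted to the start of the window shown, the word lies 138 bases before it in Cdc6 and in Pola1, and 165 in Mcm7. Mcm6 has words at 110, 106 and 47 bases before the start, of which the first 2 overlap on opposite strands. Mcm7 has a further word after its start, outside the stretch shown. A word was found in 1 of the 2 higher members with a window, in 2 of the 7 lower members and in 9 of the 21 measured members that did not pass. Fen1, the member with the largest fall, had none of these words in its window. Tk1, the member with the largest rise, was not among the members with a word either, but not every higher member had a window. A match describes letters and is not a binding site shown to be used.

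Among the origin licensing genes, Orc6 and Cdc6 were lower in ICAM1-positive cells, and Orc1 and Cdt1 did not pass. Orc6, a subunit of the origin recognition complex, measured 325.2, 410.4 and 313.6 in ICAM1-positive cells, against 605.6, 857.5 and 496.9 in ICAM1-negative cells. Its groups did not overlap, and the log2 difference was -0.88 ± 0.15 (SE of the limma fit on 3 litters, adjusted p = 0.0248). Cdc6, the ATPase that helps to load the MCM ring and has a promoter window shown above, measured 180.1, 145.6 and 192.2 in ICAM1-positive cells, against 303.6, 259.3 and 268.7 in ICAM1-negative cells. Every ICAM1-positive value lay below every ICAM1-negative value (-0.69 ± 0.15, adjusted p = 0.0385; 0.0582 without a filter on dim probe sets). For Orc6 and Cdc6 no second probe set was found. Cdt1, which brings the MCM ring to the origin, gave 1607.6, 1605.1 and 1702.6 in ICAM1-positive cells and 1280.8, 1362.8 and 1287.9 in ICAM1-negative cells. Its groups did not overlap either, but the difference of 0.32 had a 95% interval from -0.05 to 0.70 (adjusted p = 0.138). Orc1, the ATPase subunit of the origin complex, overlapped between the sorts (0.31, interval -0.30 to 0.91).

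The 6 subunits of the MCM helicase ring did not move together. Mcm7 was the only subunit called by its brightest probe set, with 2744.7, 3071 and 2539.1 in ICAM1-positive cells, against 4616.6, 5403.9 and 4369.6 in ICAM1-negative cells. The difference was nearly equal in the 3 litters (-0.75, -0.82 and -0.78; adjusted p = 0.0206). The other 3 Mcm7 probe sets gave -0.23, -0.28 and -0.41 and did not pass (adjusted p = 0.165 to 0.29), so the call rests on 1 probe set (-0.43, adjusted p = 0.0673, with the probe sets averaged). Mcm4 went the other way on 1 of its 2 probe sets. The dimmer measured 2052.9, 1934.2 and 1992.5 in ICAM1-positive cells, against 1187.7, 1124.1 and 1047.6 in ICAM1-negative cells, without overlap (0.83, adjusted p = 0.0194). On the brighter, which represents the gene by rule, litter 2 was high in both sorts, at 3361.6 in ICAM1-positive and 2451.8 in ICAM1-negative cells, where the other litters lay between 1307.1 and 1710 (0.39, adjusted p = 0.0919). 

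Mcm2, Mcm3, Mcm5 and Mcm6, the other subunits of the ring, overlapped between the sorts. Mcm2 measured 1227, 1236.7 and 1275.8 in ICAM1-positive cells, against 685.2, 1259.2 and 717.8 in ICAM1-negative cells, so that litters 1 and 3 differed by 0.84 and 0.83 and litter 2 by -0.03. Its second probe set differed by -0.07. Mcm3 differed by -0.01 (interval -0.43 to 0.41), Mcm5 by 0.07 (-0.50 to 0.65) and Mcm6, with its 3 upstream E2F words, by 0.18 (-0.27 to 0.64).

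Of the genes that turn the loaded ring into a working helicase, Cdc45 and Mcm10 were lower and Gins2 was higher. Cdc45, which stays with the moving helicase, measured 176.7, 148.9 and 218.1 in ICAM1-positive cells, against 401.7, 387.4 and 353.5 in ICAM1-negative cells. The groups were well apart, a 2.12-fold lower level (log2 difference -1.09 ± 0.20, adjusted p = 0.0276). Averaged with its dimmer probe set the difference was -0.66 and did not pass (adjusted p = 0.0901). Mcm10, needed for helicase activation, gave 198.9, 155.2 and 204.3 in ICAM1-positive cells and 310.2, 331.3 and 311.5 in ICAM1-negative cells (-0.78 ± 0.17, adjusted p = 0.0409; 0.0598 without a filter on dim probe sets and 0.0623 with probe sets averaged). The other Mcm10 probe sets, below the median on every array, gave -1.32 and -0.60 and did not pass. Gins2 encodes a subunit of GINS, the partner of Cdc45 in the active helicase, and moved the opposite way. It measured 377.4, 688.4 and 463.2 in ICAM1-positive cells, against 244.2, 270 and 219.7 in ICAM1-negative cells (1.02 ± 0.20, adjusted p = 0.0331). A second Gins2 probe set rose alike (0.96, adjusted p = 0.0184). Gins1, another GINS subunit, gave -0.44 with an interval from -0.92 to 0.03 (adjusted p = 0.119).

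Among the polymerases and primase, Pola1, the catalytic subunit of DNA polymerase alpha, was higher. It measured 998.4, 1088.2 and 868.5 in ICAM1-positive cells, against 591.6, 675.9 and 335.2 in ICAM1-negative cells. No arrays overlapped (0.94 ± 0.21, adjusted p = 0.0413), but the call was lost without the litter block (adjusted p = 0.06), without a filter on dim probe sets (0.0589) and with probe sets averaged (0.0606). The second Pola1 probe set, at intensities of 4.5 to 46, also lay higher without overlap and did not pass (1.62, adjusted p = 0.105). Prim2, the large primase subunit that works in 1 complex with Pola1, measured 204, 219 and 269.1 in ICAM1-positive cells and 341.2, 362.8 and 351 in ICAM1-negative cells. It lay lower in all 3 litters and did not pass (-0.62, adjusted p = 0.0522; 0.0428 without the litter block). The direction turned with its 3 probe sets averaged (0.08, adjusted p = 0.872), of which the others gave -0.27 and, at intensities of 4.1 to 78.6, 1.14. Prim1, the catalytic primase subunit, differed by -0.19 (interval -0.63 to 0.25). Pold1 and Pole, the catalytic subunits of the polymerases that extend the lagging and leading strands, differed by 0.01 (-0.64 to 0.67) and 0.01 (-0.50 to 0.51).

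Pcna, the sliding clamp and a common label of cycling cells, was bright in both sorts. It measured 9170.8, 7719.6 and 7851.5 in ICAM1-positive cells, against 7667.6, 6901.5 and 6765.9 in ICAM1-negative cells. The ICAM1-positive values lay slightly higher without overlap, and the difference did not pass (0.21, interval -0.15 to 0.58, adjusted p = 0.264). The clamp loader is built of a large subunit and small subunits, of which Rfc2 to Rfc5 are members. Rfc4 was lower, with 406.5, 597.6 and 402.5 in ICAM1-positive cells, against 865.1, 1312.3 and 634.1 in ICAM1-negative cells (-0.96 ± 0.17, adjusted p = 0.0258; 0.07 without the litter block). Litter 2 was the highest in both sorts, and a second Rfc4 probe set gave -0.99 (adjusted p = 0.0321). Rfc5 measured 649.2, 559.8 and 691.1 in ICAM1-positive cells and 978.6, 820.6 and 916.5 in ICAM1-negative cells, also without overlap (-0.52, adjusted p = 0.0548). Rfc3 gave -0.53 (interval -1.11 to 0.05) and Rfc2 -0.25 (-0.83 to 0.34).

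The genes that protect single strands and finish the lagging strand held the largest fall of the set. Fen1, the nuclease that trims the flaps of Okazaki fragments, measured 1990.4, 1599.9 and 1798.3 in ICAM1-positive cells, against 4630.7, 4798.5 and 7075.9 in ICAM1-negative cells. This 3.02-fold lower level (-1.59 ± 0.21, adjusted p = 0.014) was matched by a second probe set (-1.46, adjusted p = 0.0175). Lig1, the ligase that seals the nick which Fen1 leaves, measured 1011.2, 1003.1 and 1158.5 in ICAM1-positive cells, against 752.7, 878.1 and 817.7 in ICAM1-negative cells. Its values lay on the other side without overlap, with an interval from -0.04 to 0.79 (0.37, adjusted p = 0.127). Rpa1, the large subunit of the protein that coats single-stranded DNA, gave -0.28 (interval -0.66 to 0.10), and Rpa2, its middle subunit, gave 0.06 (-0.46 to 0.58).

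Tk1 showed the largest rise of the set. It encodes thymidine kinase of the cytosol, the salvage enzyme for thymidine. Its 3 ICAM1-positive arrays read 1189.3, 1076.2 and 1284.8, against 357.2, 275.3 and 268.7 in ICAM1-negative cells. The groups were far apart and the level was 3.96-fold higher (log2 difference 1.99 ± 0.17, adjusted p = 0.00667). The litters gave 1.74, 1.97 and 2.26. No second probe set was found for Tk1 to set beside this one. The other genes of deoxynucleotide supply did not follow. Rrm1 and Rrm2, the subunits of ribonucleotide reductase, differed by -0.04 (interval -0.43 to 0.37) and -0.22 (-0.65 to 0.21). Tyms, the synthase that makes thymidylate without salvage, lay below the array median on all 6 arrays, at 40.5 to 80 in ICAM1-positive cells and 43.9 to 61.4 in ICAM1-negative cells, so no fold is given.

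**Figure D3:**
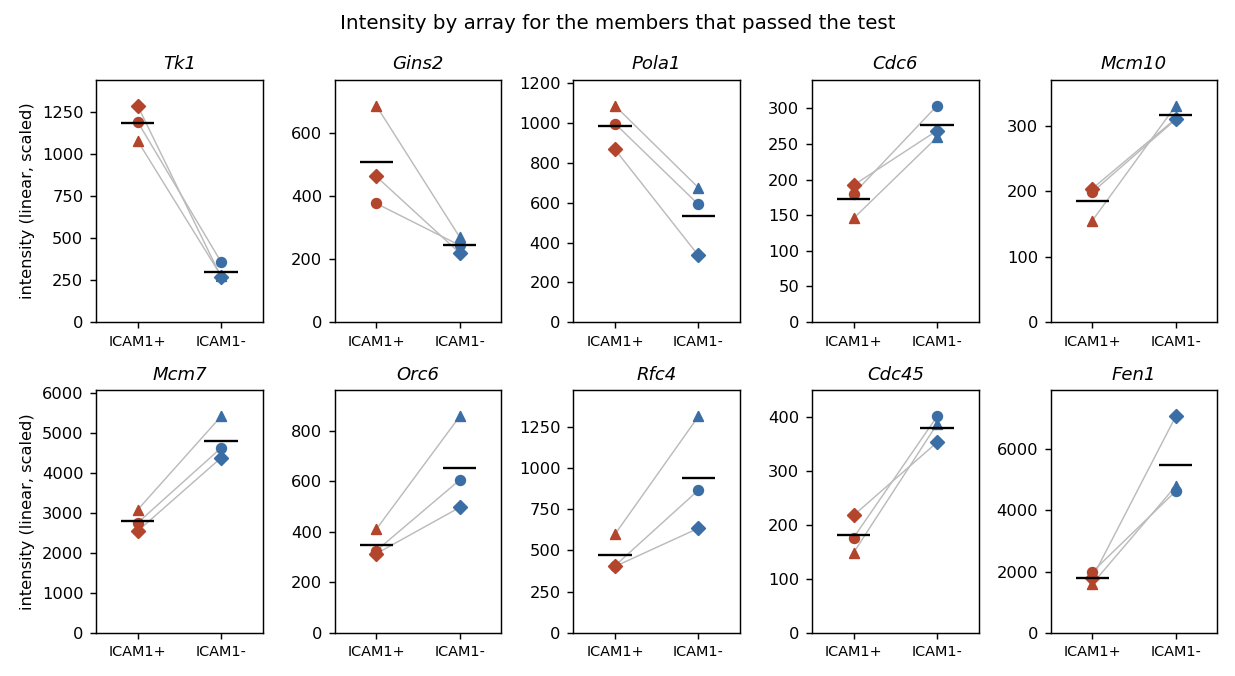
Scaled linear intensity (y axis, from 0 in each panel) of the 10 members that passed the test, in ICAM1-positive (left, red) and ICAM1-negative (right, blue) arrays. Symbols mark litters 1 (circle), 2 (triangle) and 3 (diamond), grey lines join the sorts of a litter and black bars are means; Tk1, Gins2 and Pola1 are higher in ICAM1-positive cells and the other 7 are lower.

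None of the 2 measured chromatin genes (0 at an unadjusted p under 0.05) or the 3 G1/S regulators (1 at that level) passed in the limma fit. That fit called 43.6% of all genes measured. Uhrf1, which carries DNA methylation marks through replication, differed by 0.10 (interval -0.29 to 0.49), and Chaf1b, a subunit of the histone chaperone CAF-1, by -0.21 (-0.66 to 0.24). The cyclin E genes, whose products drive S phase entry with Cdk2, gave -0.40 (-0.85 to 0.06) for Ccne1 and -0.17 (-1.16 to 0.81) for Ccne2. E2f1, an activating E2F, measured 186, 102.9 and 167.8 in ICAM1-positive cells, against 262.3, 167.8 and 207.8 in ICAM1-negative cells. Each litter was lower, but the arrays of the sorts overlapped (-0.50, interval -0.95 to -0.06, adjusted p = 0.0791).

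The rest of the replication machinery was described with a list of genes outside the 38 members, of which 54 were measured. Of these 15 were lower, 5 were higher and 34 did not pass (37% called, against 43.6% of all genes), with a median log2 difference of -0.33. The largest fall was that of E2f2, another activating E2F, which measured 52.3, 77 and 113.3 in ICAM1-positive cells, against 610.1, 343.4 and 630.1 in ICAM1-negative cells. Its size is uncertain, since 2 of the 3 ICAM1-positive values lay below the array median (-2.73 ± 0.34, adjusted p = 0.0131; 0.052 without litter 2 and 0.0667 without litter 3). Cdc7, the kinase that fires licensed origins, was 3.8-fold lower, with 302.4, 339.2 and 340 in ICAM1-positive cells, against 1536.6, 1155.2 and 1075.8 in ICAM1-negative cells (log2 difference -1.93, adjusted p = 0.00945; 0.0565 without litter 2). With its probe sets averaged the difference was -1.07 (adjusted p = 0.0143). Rpa3, the small partner of Rpa1 and Rpa2, was 3.6-fold lower, with 483.6, 541.5 and 504 in ICAM1-positive cells, against 1718.1, 2055.4 and 1738.4 in ICAM1-negative cells (adjusted p = 0.00509). Its call held without any of the 3 litters (adjusted p = 0.0397 to 0.0452).

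The largest rises of that list were in subunits of DNA polymerase epsilon and in an E2F gene. Pole4 measured 2128.6, 2532.3 and 2297 in ICAM1-positive cells, against 964.6, 1142.8 and 919.1 in ICAM1-negative cells (1.20 ± 0.13, adjusted p = 0.00991), a call that was lost when its probe sets were averaged (adjusted p = 0.338). Pole2 rose by 1.15 ± 0.14 (adjusted p = 0.0131) and E2f3, an activating E2F like E2f1 and E2f2, by 1.17 ± 0.18 (adjusted p = 0.02). The catalytic subunit gene Pole, given above, differed by 0.01. Leaving out any litter ended the calls of Pole4 (adjusted p = 0.0596 to 0.0678), Pole2 (0.0579 to 0.0843) and E2f3 (0.067 to 0.0981).

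The pocket proteins, which bind E2F factors and keep S phase genes off, changed in opposite directions. Rb1 measured 1306.8, 1965.2 and 1644.5 in ICAM1-positive cells, against 6034.7, 7322.3 and 6029.8 in ICAM1-negative cells. It was 3.98-fold lower (-1.99 ± 0.15, adjusted p = 0.00554), and the call held without any litter (0.0406 to 0.0438). With its probe sets averaged the difference was -1.01 (adjusted p = 0.018). Rbl1, which encodes p107, measured 2101.6, 1988.1 and 1990.9 in ICAM1-positive cells, against 1060.4, 590.3 and 641.8 in ICAM1-negative cells (1.46 ± 0.22, adjusted p = 0.0186; 0.0864 without litter 2 and 0.0923 without litter 3). Averaging its probe sets gave 0.89 (adjusted p = 0.0359). Rbl2, which encodes p130, the pocket protein known from quiescent cells, measured 1014, 970.1 and 947.9 in ICAM1-positive cells, against 477, 437.9 and 451.2 in ICAM1-negative cells. The rise was 2.15-fold and near equal in the litters (adjusted p = 0.0106; 0.0617 to 0.0746 with any litter left out). Of the 9 genes of this list 3 were higher and 1 lower (44.4%, against 43.6% of all genes; median 0.31).

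**Figure D4:**
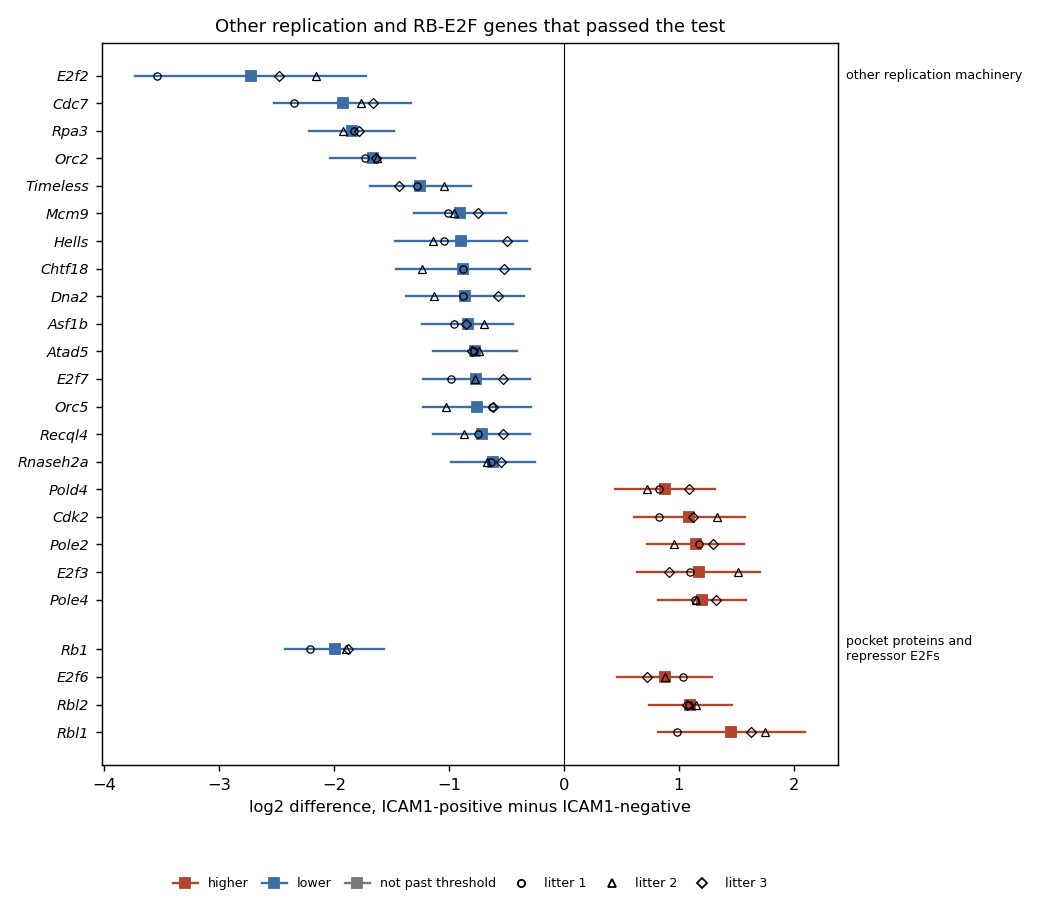
Log2 difference between ICAM1-positive and ICAM1-negative cells (x axis) for the genes of the other replication list (20) and of the pocket protein list (4) that passed the test (y axis). Squares are the estimates of the paired fit, lines their 95% intervals and open symbols the 3 litters; E2f2, Cdc7, Rpa3 and Rb1 lie lowest, and Rbl1 and Pole4 highest.

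Genes of G2 and mitosis are given for comparison. Of 19 measured, 3 were lower and 1 was higher (21.1%, against 43.6% of all genes), with a median log2 difference of -0.69. Mki67, the Ki-67 proliferation marker, measured 2118.1, 2275.8 and 1450.1 in ICAM1-positive cells, against 3148.3, 2643.7 and 1162.3 in ICAM1-negative cells. The sorts overlapped and litter 3 went the other way (-0.16, interval -0.84 to 0.53). Top2a, the topoisomerase of dividing cells, measured 1268.4, 1692.8 and 1384 in ICAM1-positive cells, against 3204.7, 3199 and 2228.5 in ICAM1-negative cells, a 1.97-fold lower level (adjusted p = 0.0315; 0.0797 to 0.12 with any litter left out and 0.0802 with its probe sets averaged). Whether this list differs from the replication genes was not tested.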

How the data were processed

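Per the labels, RNA of ICAM1-positive and ICAM1-negative cells from 3 litters was hybridised to 6 arrays of 45101 probe sets. The authors deposited linear intensity values. Per the submitters' processing notes, GCRMA was used, whose output is on a log2 scale, but the deposited values are linear with a mean of 500 on every array after trimming 2% from each end, the form of MAS5-type scaling; for the program and the detection calls, nothing is given in the sources used here. A scan batch was not tested.

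Intensities were transformed to log2, and the 64 control probe sets and those not above log2 4 on at least 3 arrays were left out, leaving 38694. A gene was represented by its brightest kept probe set with a single platform symbol (34945 probe sets had 1 symbol, 932 several, 9160 none; Entrez IDs of 34741 matched RefSeq, GRCm38.p6). limma 3.58.1 in R 4.3.3 (lmFit, eBayes without a trend) tested ICAM1-positive minus ICAM1-negative, two-sided, with litter as a block, because the labels say that both sorts of a number come from 1 litter. Same-numbered arrays' deviations from their group means correlated at 0.127, 0.199 and 0.081. Benjamini-Hochberg adjustment ran over all 38694, with a threshold of 0.05. Errors beside a log2 difference are SE of the limma fit, which moderates the spread over all probe sets, and intervals are 95%. No test compared the levels of different probe sets, though levels were ranked to pick a gene's brightest and added up in the marker sums. The fit was tested on simulated data without litter effects, in which few probe sets changed and by more than any member did. That test does not show how well differences of the members' size are found.

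The members and lists were chosen with earlier results of these data known. Named genes were all members, the 3 largest falls and rises of the other replication list, at most 3 of each other list, and Icam1, Mki67 and Top2a. The number of arrays limits the precision. Alternatives covered the litter block, the dim filter, low intensities, a pseudocount of 32, scaling, an intensity trend, probe set averaging and each litter left out. Protein sequences were not used here.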

Additional observations from a re-analysis of the deposited data

How the results depend on the processing

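The 10 called members kept their direction under all 13 alternatives run, and 11 uncalled members changed sign under at least 1 while uncalled. Without the replicate block, 9 members, 18 other replication genes, 4 pocket protein genes, 4 G2 and mitosis genes and 13512 of 38694 probe sets were called, against 10, 20, 4, 4 and 14375 with it. The pairing changed the calls of Pola1, Rfc4 and Prim2 among members, as given above. When intensities under an array's median were set to that median, 20 members, 35 other replication genes and 15 G2 and mitosis genes were called, and with an intensity trend 20, 31 and 12; the cause was not tested. Of all genes 54.4% and 56.1% were called in these fits, against 54.1% of members in each and 43.6% of all genes as reported. Without a filter on dim probe sets, 13 other replication genes, 2 G2 and mitosis genes and 34.1% of all genes were called. G2 and mitosis calls numbered 7 with the stricter filter and 8 with a pseudocount, where 63.2% and 52.2% of all genes were called. Fewer litters left fewer calls: with any litter left out, 1 member, 2 to 4 other replication genes, 1 to 2 pocket protein genes, 0 G2 and mitosis genes (limma; 2 to 9 at an unadjusted p under 0.05) and 4867 to 6123 probe sets were called. Representing genes by probe sets without an _s_at or _x_at ending, chosen after seeing the data, called 10 members and 43.4% of all genes, with Mcm4 as higher and without Mcm7. Averaging a gene's probe sets also called 10 members, and 43.9% of all genes: Mcm7, Mcm10, Cdc45 and Pola1 were lost, and Mcm4, Gins1, Rfc5 and E2f1 gained. The count over all probe sets has no value for these representations.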
